A study of Mus musculus with 6 samples.

Results

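The proteasome is the large protease of the cytosol and nucleus that degrades proteins marked with ubiquitin. Its genes were taken here as every symbol that begins with Psm, one of the letters a to g and a digit, and that was named alone by at least 1 probe set of the array. This rule gave 49 genes of 22180 measured in mouse cumulus-oocyte complexes, the immature oocytes with the somatic cumulus cells that surround them. By role they were 6 alpha and 7 constitutive beta subunits of the core particle, the 3 immunoproteasome subunits, 2 subunits of restricted tissues, 6 ATPases and 11 other subunits of the 19S regulatory particle, 5 activators or inhibitors and 7 assembly factors. The other 2, Psmc3ip and Psme3ip1, share the letters of the name but are not subunits: Psmc3ip serves meiotic recombination and Psme3ip1 encodes a partner of an activator.

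The complexes came from wildtype females primed with 5 IU of equine chorionic gonadotropin for 46 h. All were cultured with 5 µM milrinone, a blocker of the oocyte phosphodiesterase that holds oocytes in meiotic arrest, in groups of 100. The control group of 3 samples received the vehicle DMSO, and the other group of 3 samples received 5 µM Torin1, a small-molecule inhibitor of the kinase MTOR. The labels disagree on the age of the mice (21 or 23 days) and on the length of the culture (14 or 16 h). Nothing in them tells whether samples of a group had separate animals or cultures behind them. The p-values therefore reflect the spread among these arrays alone, which can be technical. The short name of Torin1 sample 3 repeats that of sample 2.

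In the core particle, alpha subunits form the outer rings that gate the channel and beta subunits form the inner rings, of which Psmb5, Psmb6 and Psmb7 carry the active sites. The 19S particle binds ubiquitinated proteins, unfolds them with its ATPases and feeds them into the core. Interferons and some immune or epithelial cells replace the active beta subunits with Psmb8, Psmb9 and Psmb10, giving the immunoproteasome, whose peptides are favoured for display on MHC class I molecules. Psme1 and Psme2 encode both chains of the activator PA28, which is induced along with it. MTOR is known to influence both protein synthesis and the proteasome, and the size and direction of that influence differ between cells.

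The comparison of Torin1 with DMSO asked which transcripts of the complex changed with the inhibitor. Levels are given as log2(intensity + 1) of normalized arrays and changes as log2 Torin1 minus DMSO with the standard error (SE) of limma. A gene was called at a Benjamini-Hochberg adjusted p below 0.05 over all genes. Array medians ran from 11.1 to 11.6 intensity units in DMSO and from 11.4 to 12.0 in Torin1. The arrays differ in how well they repeat: over all genes, the log2 values of Torin1 samples 1 and 2 differed with an SD of 0.204, and those of sample 3 differed from theirs with SDs of 0.327 and 0.350. Over the 49 proteasome genes these SDs were 0.115, 0.187 and 0.227. Between DMSO samples the SDs ran from 0.212 to 0.240 over all genes and from 0.113 to 0.180 over the 49. Torin1 sample 3 therefore stood apart over all genes, and less clearly over the 49. Markers of the labelled tissue were present, with a median level of 8.83 for 12 oocyte genes and 6.99 for 11 cumulus and granulosa genes, against 4.17 for the median gene.

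Torin1 was accompanied by lower transcript of the immunoproteasome subunits and of Psme1, 1 of the 2 chains of the activator PA28, while most of the constitutive proteasome did not pass the test. Of the 49 genes 6 fell, 0 rose and 43 were not called. The 6 were Psmb10, Psmb9, Psme1, Psmb8, Psma2 and Psmg4. Over all genes, 6.94% were called lower and 5.13% higher. Of the 6, 4 were Psmb8, Psmb9, Psmb10 and Psme1. Most of the 49 are bright, and bright genes were called more often. In a fit of only the 11090 genes above the median level, 24.7% were called in either direction. Of the 46 proteasome genes in that fit, 7 were called lower and 0 higher. At an unadjusted p below 0.05 there were 16 of the 49 in limma, where 24.0% of all genes passed. The median change of the 49 was -0.11, against 0.01 for all genes.

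**Figure D1:**
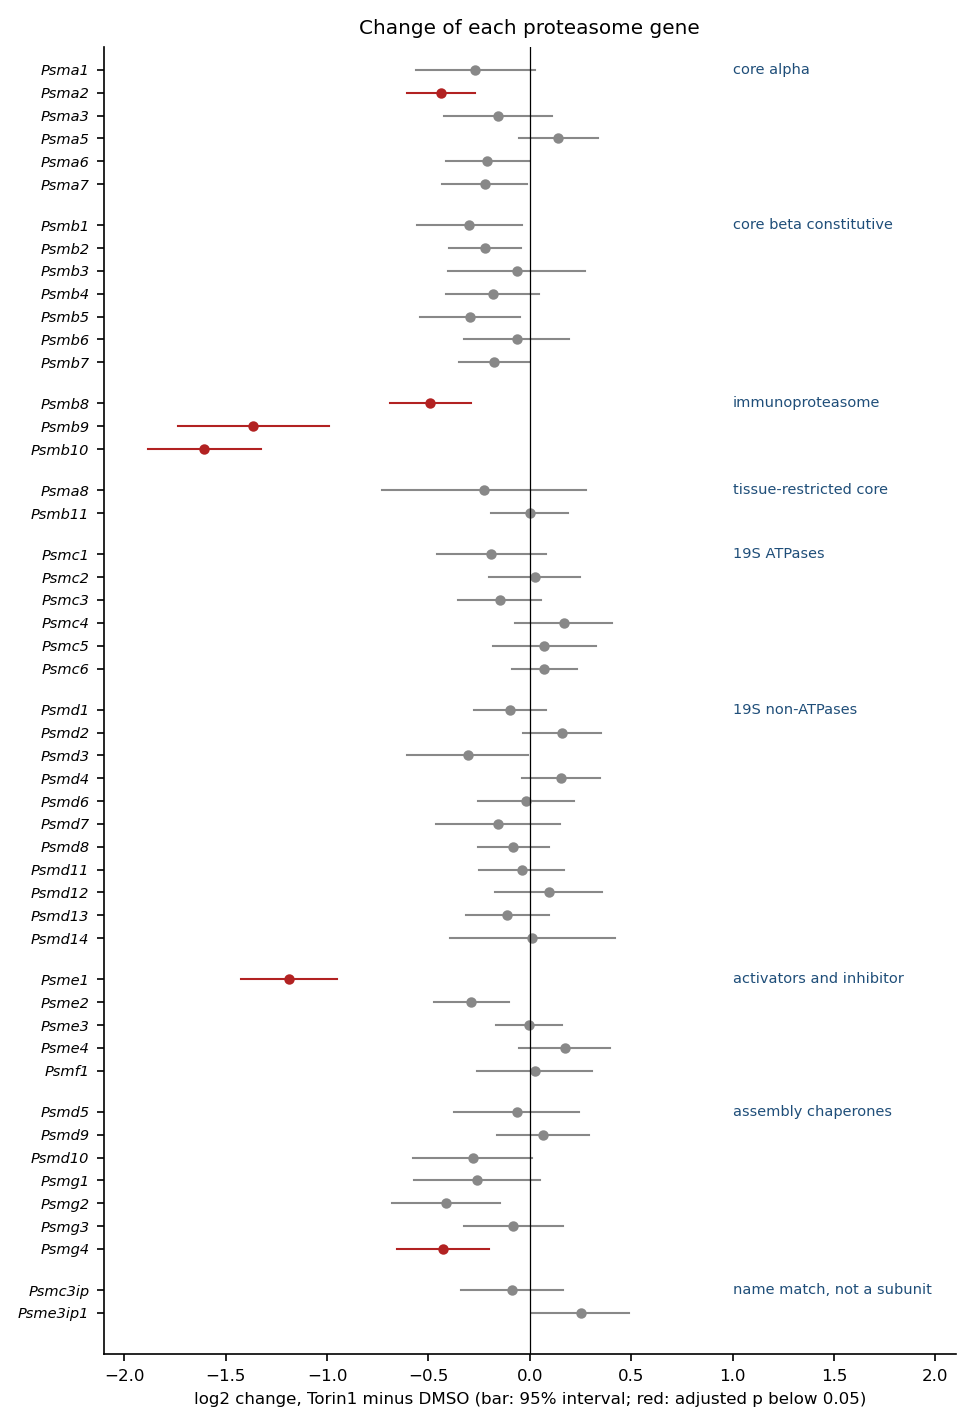
Log2 change of each of the 49 genes with its 95% interval (x axis), grouped by role (y axis); red marks an adjusted p below 0.05. Psmb9, Psmb10 and Psme1 lie below -1, while the constitutive core genes other than Psma5 lie slightly below 0 and the 19S genes lie on both sides of it.

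The sequences before the start of the 4 genes with the largest called change are shown first, because they fell and because interferon-responsive elements are known controls of this gene group. Each line gives 250 bases upstream of the start listed by RefSeq (GRCm38.p6), 5′ to 3′ in the direction of the gene. Capitals mark matches, on either strand, to the interferon-stimulated element (GAAA, any 2 bases, GAAA), the STAT motif TTCNNNGAA, the NF-Y box CCAAT or TGACNNNGC, the antioxidant element bound by NFE2-related factors.
Psmb10 (chr8:105938393-105938642, minus strand): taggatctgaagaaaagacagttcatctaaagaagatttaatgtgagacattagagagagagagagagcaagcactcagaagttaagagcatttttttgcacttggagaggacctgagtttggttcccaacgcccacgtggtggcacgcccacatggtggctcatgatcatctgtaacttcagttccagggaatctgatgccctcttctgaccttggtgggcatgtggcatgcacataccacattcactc
Psmb9 (chr17:34187331-34187580, minus strand): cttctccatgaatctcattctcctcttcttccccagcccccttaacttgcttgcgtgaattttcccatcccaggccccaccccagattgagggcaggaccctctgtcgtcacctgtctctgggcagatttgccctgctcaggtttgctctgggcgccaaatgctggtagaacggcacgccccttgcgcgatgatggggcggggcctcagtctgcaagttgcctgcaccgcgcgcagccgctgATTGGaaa
Psmb8 (chr17:34197945-34198194, plus strand): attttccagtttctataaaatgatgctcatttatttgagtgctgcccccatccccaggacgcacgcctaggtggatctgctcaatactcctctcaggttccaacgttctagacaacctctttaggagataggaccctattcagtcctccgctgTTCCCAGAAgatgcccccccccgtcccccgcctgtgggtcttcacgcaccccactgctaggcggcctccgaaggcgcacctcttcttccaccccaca
Psme1 (chr14:55578244-55578493, plus strand): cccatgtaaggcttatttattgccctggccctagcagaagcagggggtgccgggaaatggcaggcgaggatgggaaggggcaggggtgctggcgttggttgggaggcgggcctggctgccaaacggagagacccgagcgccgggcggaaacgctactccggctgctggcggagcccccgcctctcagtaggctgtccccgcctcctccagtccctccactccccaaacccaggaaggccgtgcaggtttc

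Psmb9 held an inverted CCAAT box that begins 8 bases before the start, and Psmb8 held 1 match to the STAT motif, TTCCCAGAA, 97 bases before it. Neither Psmb10 nor Psme1 had a match in these upstream bases, which are those of the start listed by RefSeq; other starts of these genes were not examined. In the 50 bases after the start, Psme1 held the interferon-stimulated element, TTTCGCTTTC, 9 bases in, and the assembly factor gene Psmg4 held GAAAGTGAAA, 15 bases in. Psma2 held a CCAAT box 54 bases upstream. In windows of 300 bases (250 before and 50 after), the interferon-stimulated element was found in 3.44% of 32851 promoters of all kinds, the STAT motif in 8.3%, CCAAT in 37.4% and TGACNNNGC in 12.4%. Counted per gene over any listed start, as for the proteasome genes, these shares were 3.87%, 9.15%, 41.6% and 14.9% of 16990 genes tested. Among 41 of the 49 genes with a listed start, 5 (12.2%) had the interferon-stimulated element (Psme1, Psmg4, Psmb3, Psmd4 and Psmd9), 3 (7.32%) the STAT motif, 16 (39%) CCAAT and 6 (14.6%) TGACNNNGC. Of these 5, only Psme1 and Psmg4 were called. The antioxidant element, a known control of constitutive subunit genes, was found before Psmb5 (TGACGTCGC, 47 bases upstream) and at the start of Psmb6 (TGACGGAGC, 9 bases upstream), and neither gene was called. Psmc6, Psmd12, Psmd9 and Psme4 held the antioxidant element too, and none of them was called. None of the 6 called genes held it in the window. A match is a description of letters, not evidence that a factor binds.

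Of the immunoproteasome genes, all 3 fell. Psmb10, which encodes the trypsin-like active subunit of the immunoproteasome, was at 6.96, 6.95 and 6.96 in the DMSO samples and at 5.43, 5.53 and 5.10 in the Torin1 samples. The DMSO values were nearly equal and every Torin1 value lay more than a full log2 unit below them. The change was -1.60 ± 0.12 (SE), 3.04-fold lower (limma adjusted p = 0.00040).

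Psmb9, for the subunit that takes the place of Psmb6, was at 5.86, 5.29 and 5.74 with DMSO and at 4.34, 4.35 and 4.11 with Torin1. DMSO sample 2 was the low value of its group and still lay above all Torin1 values. The change was -1.36 ± 0.16 (SE), or 2.57-fold lower (limma adjusted p = 0.0023). The Torin1 mean of 4.27 lies close to the median gene of the arrays, so the size of this fall is uncertain.

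Psmb8, for the chymotrypsin-like subunit that replaces Psmb5, changed less. Its values were 5.02, 5.07 and 4.96 with DMSO and 4.62, 4.57 and 4.40 with Torin1, again without overlap. The change was -0.49 ± 0.09 (SE), or 1.40-fold lower (limma adjusted p = 0.0116). Each of the 3 genes was called in each of the 6 fits that left out 1 array. The highest adjusted p among these was 0.0041 for Psmb10, 0.0150 for Psmb9 and 0.0471 for Psmb8. With a pseudocount of 16 in place of 1, Psmb9 fell by 0.92 and Psmb8 by 0.32, a scale on which dim genes move less.

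**Figure D2:**
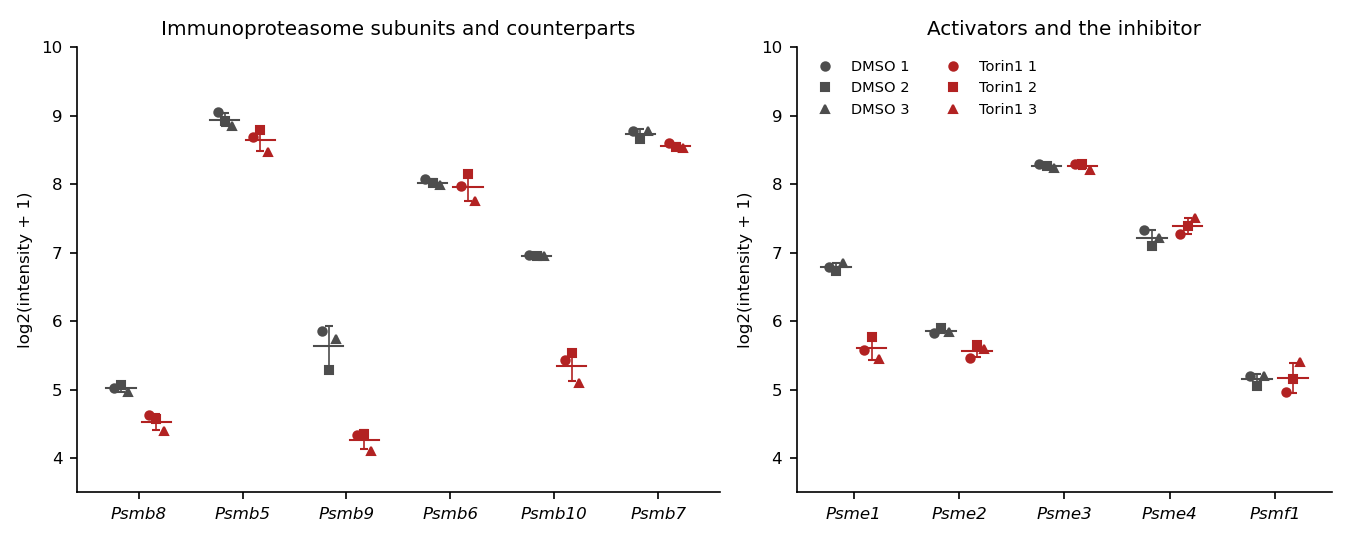
Level of each gene on the 6 arrays (y axis, log2(intensity + 1)); left, immunoproteasome subunits each beside the constitutive subunit it replaces, right, activators and the inhibitor. Horizontal lines are group means and bars the SD of 3 samples. Psmb8, Psmb9, Psmb10, Psmb5, Psmb7, Psme1 and Psme2 have no overlap between DMSO (grey) and Torin1 (red), while Psmb6, Psme3, Psme4 and Psmf1 overlap. Heights of different genes are not comparable.

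None of the constitutive counterparts was called. Psmb5 was at 9.05, 8.93 and 8.85 with DMSO and at 8.68, 8.78 and 8.47 with Torin1, a change of -0.30 ± 0.10 (SE; limma adjusted p = 0.131). Psmb6 was at 8.07, 8.01 and 7.99 with DMSO and at 7.97, 8.15 and 7.75 with Torin1, and its groups overlapped (change -0.07 ± 0.11, limma adjusted p = 0.831). Psmb7 was at 8.77, 8.66 and 8.78 and at 8.61, 8.54 and 8.53, with a change of -0.18 ± 0.07 (limma adjusted p = 0.193). The values of Psmb5 and Psmb7 did not overlap between the groups, which was true of 28.6% of all genes.

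To set each immunoproteasome gene against its counterpart, the log2 difference within each array was compared between the groups for these 3 pairs. The difference of Psmb10 from Psmb7 fell by 1.43, that of Psmb9 from Psmb6 by 1.30, and that of Psmb8 from Psmb5 by 0.19, and in each pair the 3 Torin1 values lay below the 3 DMSO values. The exact permutation test, two-sided, gave p = 0.1 for each pair (0.1 after adjustment over the 3), the smallest value that 3 samples against 3 can give. A ratio of this kind shows unequal change only. For Psmb8 and Psmb5 the size of 0.19 stood beside SDs of 0.09 in each group.

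Of the PA28 activator genes, Psme1 fell. Its values were 6.79, 6.73 and 6.85 with DMSO and 5.58, 5.77 and 5.45 with Torin1, a change of -1.19 ± 0.10 (SE), 2.28-fold lower (limma adjusted p = 0.00066). It was called in all 6 fits that left out 1 array. Psme2, for the other chain of the same ring, was at 5.83, 5.90 and 5.84 and at 5.47, 5.65 and 5.59. Its groups did not overlap either, but the change of -0.29 ± 0.08 was not called (limma adjusted p = 0.0589); with a pseudocount of 16 it was called (limma adjusted p = 0.0326). Psme3, whose product forms a separate nuclear activator that is not part of the interferon-induced set, was at 8.30, 8.27 and 8.24 and at 8.29, 8.29 and 8.21. Its change was 0.00 ± 0.07, with a 95% interval from -0.17 to 0.16. Psme4, for the activator PA200, changed by 0.17 ± 0.10 (limma adjusted p = 0.352) and Psmf1, for the inhibitor PI31, by 0.02 ± 0.12 (limma adjusted p = 0.953).

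The constitutive core genes were shifted slightly downward with 1 call. Of the 13 measured, 12 had a change below 0, against 47.2% of all genes, 1 fell, 0 rose and 12 were not called. Psma2, an alpha ring subunit, was at 9.17, 9.09 and 9.05 with DMSO and at 8.65, 8.65 and 8.68 with Torin1. It fell by 0.44 ± 0.07 (SE; limma adjusted p = 0.0086), and its Torin1 values were almost identical. The alpha class had a median of -0.22 and the constitutive beta class a median of -0.18. In the beta class all 7 changes lay below 0, from -0.30 for Psmb1 to -0.06 for Psmb3, and 5 of the 7 genes (Psmb1, Psmb2, Psmb4, Psmb5 and Psmb7) had no overlap between the groups. Absence of overlap with lower Torin1 values was seen in 14.3% of all genes. The 95% intervals of these 7 changes ran from -0.56 to 0.27, so changes of 2-fold were outside them. Psmb2 was called only with a pseudocount of 16 (limma adjusted p = 0.0471).

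Among the other alpha genes, Psma6 and Psma7 were lower without overlap (-0.21 ± 0.09 and -0.22 ± 0.09), and Psma1 and Psma3 overlapped (-0.27 ± 0.12 and -0.16 ± 0.11). Psma5 went the other way, at 0.14 ± 0.08, but both of its probe sets read between 2.86 and 3.35, below the median gene, so they carry little information on this subunit. Psma4 was named only by probe sets shared with the gene AY074887 and is not among the 49. The brighter of those shared sets stood at 7.06 in DMSO and 6.87 in Torin1, and was not tested. Psma8 and Psmb11, which belong to testis and thymus proteasomes, read 3.55 and 3.67 on average, below the median gene, and were not called.

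The 17 genes of the 19S regulatory particle under the name rule showed no call and no shared direction. Of these 9 had a change below 0 and 8 above, where 52.8% of all genes lay above. The 17 had a median of -0.02, and all 17 lay between -0.31 and 0.17. At an unadjusted p below 0.05 there was 1 of the 17, Psmd3, in limma, against the 24.0% of all genes. The 95% intervals stayed between -0.60 and 0.42. The 6 ATPase genes Psmc1 to Psmc6, which unfold substrates, had a median of 0.05, and the 11 others a median of -0.04. Of the ATPases, Psmc1 was at -0.19 ± 0.11 and Psmc3 at -0.15 ± 0.09 (-0.081 and -0.075 without Torin1 sample 3). Psmd3, for a scaffold subunit, had the lowest value of the 17, -0.31 ± 0.13 (limma adjusted p = 0.194). Its values were 7.86, 7.57 and 7.54 in DMSO and 7.27, 7.56 and 7.23 in Torin1. Sem1, which belongs to the particle but not to the name rule, was at -0.33 ± 0.09. It was lower without overlap and not called (limma adjusted p = 0.0588). Psmd2, for the large scaffold of the base, was at 8.88, 8.68 and 8.78 and at 8.91, 9.01 and 8.90, a change of 0.16 ± 0.08 (limma adjusted p = 0.316). It was above all DMSO values on all Torin1 arrays, as were Psmc6 and Psmd4, the latter a ubiquitin receptor. These were 3 of the 17, where 14.3% of all genes were higher without overlap. Psmc3 was lower without overlap, 1 of the 17, where 14.3% of all genes were. Psmd14, the deubiquitinase of the particle, changed by 0.01 ± 0.17. The median of the ATPases was near 0 and changed sign without Torin1 sample 2 (-0.028), without DMSO sample 2 (-0.011) and with the mean of probe sets (-0.0016).

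**Figure D3:**
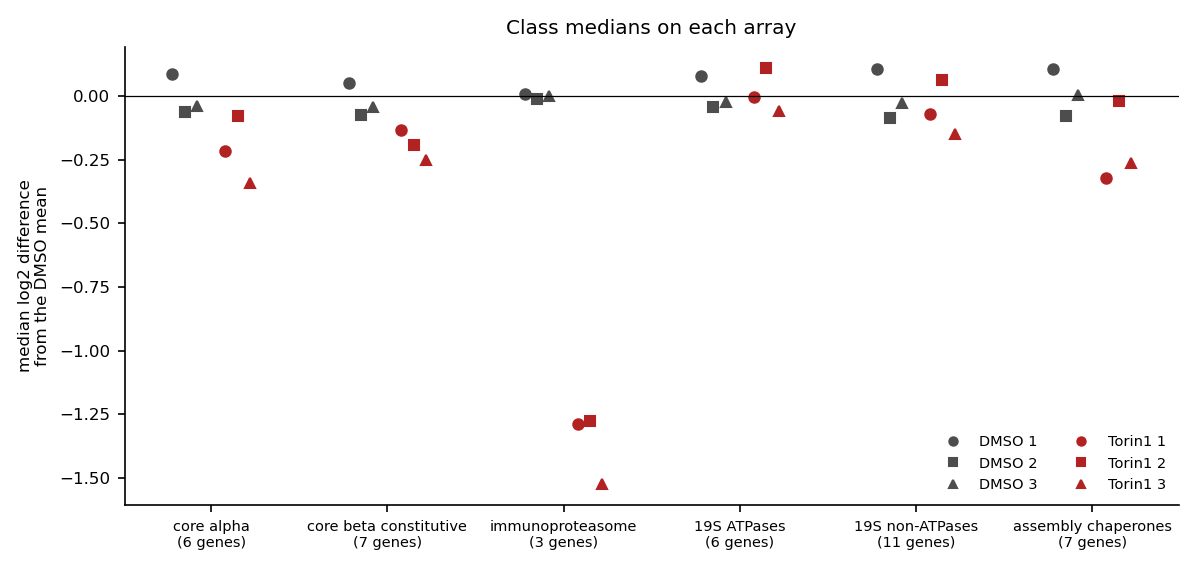
Median over the genes of a class of the log2 difference from the DMSO mean (y axis), on each of the 6 arrays, for 6 classes (x axis). The immunoproteasome lies between -1.53 and -1.28 on the Torin1 arrays, the constitutive beta class between -0.25 and -0.13, and the 19S classes on both sides of 0.

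Array by array, the median of the 30 constitutive core and 19S genes lay at 0.10, -0.08 and -0.03 on the DMSO arrays and at -0.09, -0.02 and -0.22 on the Torin1 arrays, measured from the DMSO mean. Torin1 sample 3 was the lowest, and samples 1 and 2 lay within the range of the DMSO arrays or just outside it. For the immunoproteasome the same measure was 0.01, -0.01 and 0.00 against -1.29, -1.28 and -1.52, and here all Torin1 arrays were low. Without Torin1 sample 3 the same 6 genes were called lower, and Psme3ip1 was called higher (0.35, limma adjusted p = 0.0390); with all arrays it was at 0.25 ± 0.10 (limma adjusted p = 0.184).

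The assembly factors of the proteasome include Psmg1 to Psmg4, which build the alpha ring, and Psmd5, Psmd9 and Psmd10, which build the base. Of these 7 genes 6 had a change below 0, against 47.2% of all genes. The median of the 7 was -0.26 (-0.38 without Torin1 sample 2 and -0.16 without sample 3). Psmg4 was at 6.36, 6.21 and 6.29 with DMSO and at 5.78, 5.77 and 6.03 with Torin1, and fell by 0.43 ± 0.10 (SE; limma adjusted p = 0.0301). It lost its call without DMSO sample 1, 2 or 3 or without Torin1 sample 1 or 2, with adjusted p up to 0.107, although its change stayed between -0.51 and -0.38. Psmg2 had a change of similar size, -0.41 ± 0.11, that was not called (limma adjusted p = 0.0610). Its second probe set read -0.58, and with the mean of both sets it was called (-0.50, limma adjusted p = 0.0314). Psmg2 was also called without DMSO sample 2 (limma adjusted p = 0.0465) and in the fit of only the genes above the median level. Psmd10 (gankyrin) and Psmg1 were at -0.28 ± 0.12 and -0.26 ± 0.13 and were not called, except Psmd10 without Torin1 sample 2 (-0.41, limma adjusted p = 0.0482). Pomp, whose product matures the core particle, was at -0.32 ± 0.12, with no overlap between groups and no call (limma adjusted p = 0.166).

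At an adjusted p below 0.05, other genes that act on the proteasome were called about as often as genes in general, of which 12.1% were called in either direction. By the looser measures below, more of them differed than of all genes. Outside the name rule, 17 deubiquitinases, shuttles, assembly and other genes were measured, Pomp and Sem1 among them. Of these 17 genes 1 rose, 1 fell and 15 were not called. At an unadjusted p below 0.05 there were 9 of the 17 in limma, where 24.0% of all genes passed. Without overlap 5 were higher and 5 lower, where 14.3% of all genes were in each direction. They are mostly bright, with a median level of 7.48, and 24.7% of genes above the median level were called in their own fit. Zfand5, whose product binds the 26S particle and stimulates it, rose from 7.45, 7.38 and 7.46 to 8.18, 8.22 and 8.43, a change of 0.85 ± 0.09 (SE; limma adjusted p = 0.0016), called without any 1 array. Txnl1, a thioredoxin-like protein bound to the 19S particle, fell by 0.48 ± 0.09 (limma adjusted p = 0.0144). It was not called without DMSO sample 1, DMSO sample 3 or Torin1 sample 1 (adjusted p up to 0.0613). Usp14, a deubiquitinase of the particle, was at -0.03 ± 0.18. Of 4 measured genes of ubiquitin activation and extraction, Uba6, an alternative E1 enzyme, was called higher (0.47 ± 0.11, limma adjusted p = 0.0355), but not in 5 of the 6 fits without 1 array (adjusted p up to 0.112).

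The known transcriptional regulators of proteasome genes showed 1 rise and 1 fall among 14 measured, again close to the 12.1% of all genes. At an unadjusted p below 0.05 there were 5 of the 14 in limma, where 24.0% of all genes passed. Nfe2l1 encodes the factor that raises constitutive subunit genes when the proteasome is impaired. It was at 8.50, 8.41 and 8.37 with DMSO and at 8.21, 8.18 and 8.01 with Torin1, lower without overlap but not called (-0.29 ± 0.08, limma adjusted p = 0.0704). A second quantile normalization gave -0.33 and a call (limma adjusted p = 0.0421), and so did a pseudocount of 16, at -0.28 (limma adjusted p = 0.0468). Nfe2l2, for the related antioxidant response factor, fell by 0.63 ± 0.13 (limma adjusted p = 0.0193). It lost the call without DMSO sample 1, DMSO sample 3 or Torin1 sample 1 (adjusted p up to 0.0604). Mafg, for a small partner of both factors, rose by 0.78 ± 0.10 (limma adjusted p = 0.0033) and was called without any 1 array.

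The immunoproteasome makes peptides for MHC class I, and several genes of that route fell. Of 19 measured genes of class I presentation and its interferon control, 8 fell, 0 rose and 11 were not called, with a median of -0.37 and 4 changes above 0. Over all genes, 6.94% were called lower. Erap1, the peptidase that trims the peptides, and Tapbp (tapasin), which helps to load them, had the largest falls (-1.81 ± 0.23 and -1.57 ± 0.11). Tap1, 1 chain of the peptide transporter, fell from 5.88, 6.10 and 6.07 to 4.97, 5.10 and 5.14 (-0.94 ± 0.09, limma adjusted p = 0.0011). B2m, the class I light chain, Tapbpl, a relative of tapasin, and H2-K1, a heavy chain, fell less (-0.86 ± 0.14, -0.78 ± 0.08 and -0.40 ± 0.09). H2-K1 lost its call without DMSO sample 2 or 3 or without Torin1 sample 1 or 2 (adjusted p up to 0.110).

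Of the interferon pathway, Ifngr2 (a receptor chain) and Stat2 (a signal transducer of type I interferon) fell (-1.01 ± 0.10 and -0.99 ± 0.14). Irf1, a factor known to raise immunoproteasome genes, was at 5.16, 5.38 and 5.24 with DMSO and at 5.18, 5.25 and 5.02 with Torin1, and overlapped (-0.11 ± 0.09, limma adjusted p = 0.609). Jak1, a kinase of the interferon receptors, was lower without overlap and was not called (-0.37 ± 0.10, limma adjusted p = 0.0636). Ifngr1, Irf2 and Irf8 overlapped and were not called (-0.52 ± 0.34, -0.14 ± 0.19 and 0.15 ± 0.10). Jak2, also a kinase of these receptors, and Nlrc5, an activator of class I genes, were higher without overlap and were not called (0.38 ± 0.11 and 0.35 ± 0.13, limma adjusted p = 0.0675 and 0.142). Nlrc5 was called without DMSO sample 1 (0.49, limma adjusted p = 0.0270). Jak2 was called without Torin1 sample 3 (0.44, limma adjusted p = 0.0406) and with Torin1 samples 2 and 3 as 1 sample (0.36, limma adjusted p = 0.0487). In RefSeq's gene order on chromosome 17, Psmb9, Tap1, Psmb8 and Tap2 follow each other inside the MHC. Their changes in that order were -1.36 ± 0.16, -0.94 ± 0.09, -0.49 ± 0.09 and 0.32 ± 0.17. The first 3 of these fell. Tap2 read 3.55 in DMSO and 3.87 in Torin1, both below the median gene, and was not called (limma adjusted p = 0.322), except without Torin1 sample 3 (0.50, limma adjusted p = 0.0406) and with Torin1 samples 2 and 3 as 1 sample (0.32, limma adjusted p = 0.0462).

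**Figure D4:**
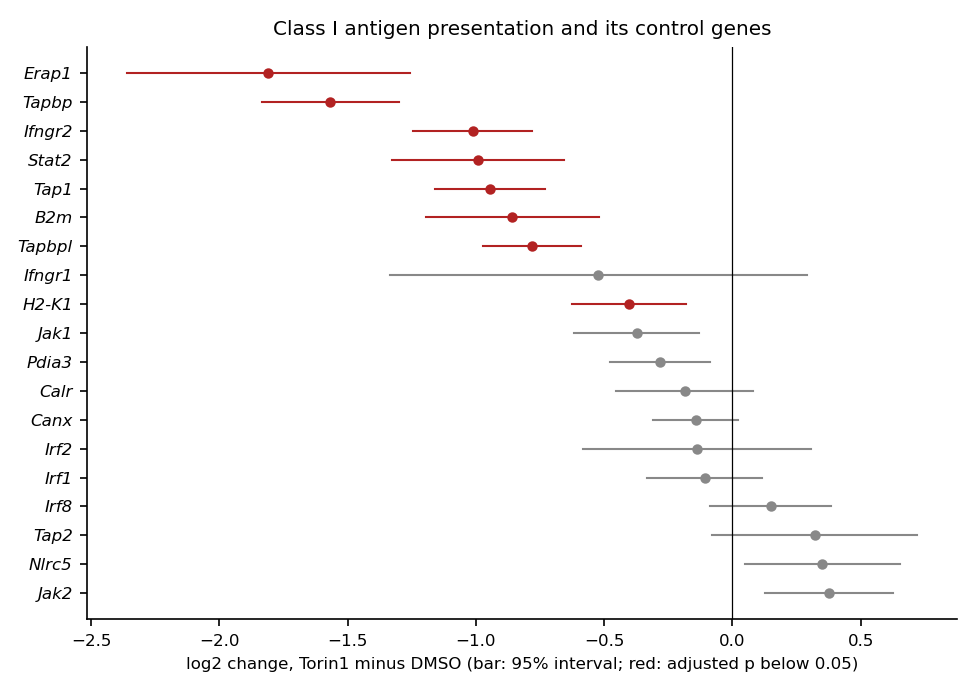
Log2 change with its 95% interval (x axis) of the 19 measured genes of class I antigen presentation and its interferon control (y axis), ordered by change; red marks an adjusted p below 0.05. Erap1 and Tapbp lie below -1.5, and the 4 genes above 0 were not called.

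Several cell types share these RNA samples, and in whole complexes fewer cells of a type and less RNA per cell cannot be told apart. Among all genes 6.94% were called lower, 5.13% were called higher and 52.8% had a change above 0. Beside the falls above, 10 of 11 cumulus and granulosa markers also fell, and Inhba, an activin subunit, rose by 2.06 ± 0.21. Their summed intensity ran from 4849 to 5053 on the DMSO arrays and from 2512 to 3063 on the Torin1 arrays. Of 12 oocyte markers, all changes were above 0 and 1 was called, Figla, at 0.38 ± 0.09, which kept its call in 2 of the 6 fits without 1 array (adjusted p up to 0.116). Their sum ran from 5290 to 5665 against 5879 to 6416. The part of cell makeup in the falls of the immunoproteasome genes was not tested.

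Leukocytes are known to carry much immunoproteasome. For the counts that follow, the shares called over all genes were 6.94% lower and 5.13% higher. Of 12 measured leukocyte markers, 0 fell and 1, Cd68, rose by 0.54 ± 0.11. It lost its call without DMSO sample 1, 2 or 3 or Torin1 sample 1 (adjusted p up to 0.0681). Their summed intensity ran from 116 to 127 with DMSO and from 130 to 138 with Torin1, and Ptprc, the pan-leukocyte gene, read 3.04 and 3.07, below the median gene. Cd68 itself went from 4.39 to 4.93, and the means of the other 11 lay below the median gene in both groups. Of 6 endothelial markers 0 fell and Cdh5 rose by 2.33 ± 0.37, and their sum ran from 102 to 108 against 152 to 268. The rise of that sum came largely from Cdh5, at a level of 4.10 with DMSO and 6.43 with Torin1. The other 5 endothelial markers were not called. Of 6 theca and stroma markers 2 fell, Acta2 (-2.87 ± 0.12) and Pdgfra (-0.82 ± 0.08), and their sum ran from 392 to 458 against 105 to 121. Acta2 made up most of that sum with DMSO, at a level of 8.43 against 5.56 with Torin1, and the 4 markers other than Acta2 and Pdgfra were not called. The part of these cells in the results was not tested.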

How the data were processed

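RNA of 3 DMSO and 3 Torin1 samples was amplified and hybridised to Affymetrix arrays, and the samples were grouped by their titles. The deposited intensities, 1 per probe set and array on a linear scale, come from RMA, with GCOS and Expression Console 1.1 also named in the submitters' processing notes; their settings were not stated there. RMA equalises the arrays before it summarises the probe sets, so changes are relative to other transcripts. The deposited values did not share exactly 1 distribution, with array medians from 11.1 to 12.0 intensity units. The number of arrays limits the precision.

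From these, log2(intensity + 1) was taken. Of 41345 probe sets, 23521 named 1 gene, 1814 several and 16010 were unnamed here. The brightest set per gene over all arrays gave 22180 genes, and 3 of the proteasome genes had 2 sets. Identifiers of 23328 probe sets matched RefSeq (GRCm38.p6). Both groups were fitted with limma 3.58.1 (R 4.3.3; two-sided, without covariate or filter), and p-values were adjusted over all genes by Benjamini-Hochberg. On simulated data with these 22180 genes, 40% of genes changed by 0.5 (log2) were recovered, 80% at 1, 100% at 2 and 98% at 3. The simulation held far fewer changed genes than were called here, and independent noise. Its shares therefore check the fit and need not hold for this comparison.

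The genes and lists were chosen with earlier results of these data known. Named genes were every called proteasome gene, the immunoproteasome genes with their counterparts, the activators, the 2 of smallest p in classes without a call, and of other lists up to 6 called genes by size and a fixed few. The remaining proteasome genes, Sem1, Tap2, Tapbpl, H2-K1, Jak1, Jak2, Ifngr1, Irf2, Irf8, Nlrc5, Ptprc, Cd68, Cdh5, Figla, Inhba, Acta2 and Pdgfra were named after their values were seen. Adrm1 and Psme2b, among others of the lists, were not analysed here. Promoters are those of RefSeq. Alternatives covered the pseudocount, dim genes, probe sets, scaling, variance model, block, each array left out, and Torin1 samples 2 and 3 as 1 sample.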

Additional observations from a re-analysis of the deposited data

How the results depend on the processing

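Psmb8, Psmb9, Psmb10 and Psme1 kept their direction and call under all 14 alternatives, with adjusted p up to 0.0471, 0.0150, 0.0041 and 0.0086. The count of proteasome genes called lower was 6, and ran from 4 to 8; that of genes called higher was 0, except 1 without Torin1 sample 3. Same-numbered samples did not deviate together (correlations -0.21, -0.30 and -0.15, and no sample matched its own number best). With the replicate number as a block, 1565 of all genes were called in place of 2678, and 4 proteasome genes were lower; Psma2 (adjusted p = 0.0578) and Psmg4 (0.0836) were not called. Without 1 array, 1518 to 3083 of all genes were called. The share of all genes with a change below 0 depended on scaling. It was 47.2%, and 54.2% after a second quantile normalization and 57.5% with median centring. In each of these fits 12 of the 13 constitutive core genes were below 0. The median of the immunoproteasome was -1.36, and -0.92 with a pseudocount of 16, which compresses dim genes. Without 1 array the median of the 19S ATPases ran from -0.028 to 0.076 and that of the assembly factors from -0.38 to -0.16. Psmg4 was also lost with a trended variance (adjusted p = 0.0538).

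Genes near 0 changed sign, always without a call. With the mean of probe sets Psmc2 was at -0.074, after a second quantile normalization Psmc2 and Psmd14 were each at -0.0022 and Ptprc at -0.0076, and with median centring Psmc2, Psmd14, Psmf1 and Ptprc were at -0.013, -0.024, -0.013 and -0.013. With Torin1 samples 2 and 3 as 1 sample, Psme3 was at 0.0036 and Psmf1 at -0.028. Without 1 array the changes ran from -0.142 to 0.0795 for Psmb3, -0.161 to 0.0389 for Psmb6, -0.0368 to 0.0422 for Psmb11, -0.0438 to 0.0817 for Psmc2, -0.0126 to 0.135 for Psmc5, -0.198 to 0.0134 for Psmd5, -0.0679 to 0.0586 for Psmd6, -0.0885 to 0.0235 for Psmd11, -0.118 to 0.19 for Psmd14, -0.0191 to 0.0243 for Psme3, -0.0903 to 0.129 for Psmf1, -0.226 to 0.106 for Usp14 and -0.033 to 0.085 for Ptprc. The cause of these shifts was not tested.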
